A study of Mus musculus with 22 samples.

Results

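The 10 cytokine genes described here are Il12a, Il12b, Il23a, Il27, Ebi3, Il6, Il10, Il1a, Il1b and Il18, which encode subunits of the IL-12 family, IL-6, IL-10 and members of the IL-1 family. They were taken by name from a table of read counts for 34047 genes in sorted mouse dendritic cells, together with the accessible chromatin around them. All cells came from Tbx21 RFP-cre mice of both sexes, naive and aged 6 to 10 weeks, which carry on both alleles a knock-in that reports T-bet (Tbx21) as red fluorescent protein (RFP) and also expresses Cre. All groups, cDC1 included, share this genotype and no group was stimulated. From CD11c+ MHCII+ cells of collagenase-digested tissue that were negative for lineage markers, CD64 and Ly6C, 3 subsets were sorted: XCR1+ cDC1, RFP+ (T-bet+) cDC2 and RFP- (T-bet-) cDC2. Each RNA library pooled cells of 2 mice. Spleen gave 3 libraries of each subset, and mesenteric lymph node (MLN) gave 3 of cDC1 and 2 of each cDC2 subset, 16 in all. ATAC-seq, which maps open chromatin with a transposase, was made from spleen only, with 2 libraries of each subset. Pools of mice and the reporter sort limit these groups as models, because levels are means over mice and T-bet- means RFP-negative at the time of the sort.

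Dendritic cells instruct T cells partly through these cytokines. IL-12 is a heterodimer of p35 (Il12a) and p40 (Il12b) that favours Th1 cells, and p40 also pairs with p19 (Il23a) to make IL-23, which sustains Th17 cells, while p28 (Il27) pairs with Ebi3 to make IL-27. IL-1 alpha and IL-1 beta act through the same receptor, IL-1 beta and IL-18 are made as precursors that caspase-1 cleaves in inflammasomes, and IL-6 and IL-10 signal mainly through STAT3, with IL-10 restraining the production of the others. An RNA level does not show how much cytokine was secreted, and for the heterodimers the less abundant subunit limits what can be assembled.

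Libraries held 20993220 to 29006549 counted RNA reads and 7270164 to 10081555 ATAC reads in windows. Summed markers separated the sorted subsets, though not every gene of a list did. Summed counts scaled to library size (CPM) of 6 cDC1 genes were 1150 to 2830 in cDC1 and 77.3 to 216 in cDC2. Of these, Batf3 averaged 116 CPM in both spleen cDC1 and T-bet+ cDC2 and 102 to 111 over the MLN groups. Tbx21 averaged 21.5 ± 3.96 CPM in spleen T-bet+ cDC2, 1.38 ± 1.04 in T-bet- cDC2 and 0.753 ± 0.549 in cDC1 (n = 3 each). With Dtx1 added, which made up most of it, the sum was 321 to 349 CPM in spleen T-bet+ cDC2, 6.35 to 11 in T-bet- cDC2 and 0.759 to 1.6 in cDC1. In the MLN that sum was 38.7 and 17.6 CPM in the T-bet+ libraries and 3.51 and 2.98 in the T-bet- libraries, with Tbx21 alone at 5.07 and 0.735 on average. A list of 4 genes of T-bet- cDC2 summed to 664 to 895 CPM in spleen T-bet- cDC2, 41.8 to 61 in T-bet+ and 277 to 328 in cDC1. Of these, Clec12a was higher in cDC1 than in T-bet- cDC2, at 222 and 210 CPM in spleen and 160 and 80.8 in MLN. The paper named Dtx1 and genes of the T-bet- list partly from these libraries, so they are no independent check of the sort. Within the MLN, summed CPM of 7 genes of mature dendritic cells were 4200 in cDC1 library 1 and 2950 in T-bet+ library 1. The other 5 libraries had 11500 to 15300, so cDC1 library 1 and T-bet+ library 1 stand apart. Both carry the number 1 in their names, whereas the MLN T-bet- libraries carry the numbers 2 and 3. Comparisons with MLN T-bet- cDC2 are therefore unbalanced in this number, and whether it marks a shared preparation is not stated. Libraries also fell into 2 classes by how their counts leaned with the GC content of genes, the higher class holding all spleen T-bet+ libraries, spleen cDC1 1 and 2, spleen T-bet- 3, MLN T-bet- 2 and MLN cDC1 2 and 3. Nothing in the sources says that libraries of a group came from separate sorts, so that the p-values measure the spread between pooled libraries.

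Per unit of transcript length, p40 was by far the most abundant IL-12 subunit RNA, and p35 and p19 were barely detected. In CPM per kilobase of exon (RPKM), Il12b averaged 220 ± 32.4 (SD, n = 3) in spleen cDC1, 37.6 ± 5.97 (n = 3) in T-bet+ cDC2 and 59.6 ± 15.9 (n = 3) in T-bet- cDC2. Group means of Il12a lay between 0.0241 and 0.31 RPKM over the 6 groups and those of Il23a between 0.0289 and 0.458. Ebi3 averaged 50.7 to 79.9 RPKM, whereas its partner Il27 averaged 1.21 to 13.4. In each of the 6 groups the mean of Il12b exceeded those of its partners Il12a and Il23a, and the mean of Ebi3 exceeded that of its partner Il27.

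**Figure D1:**
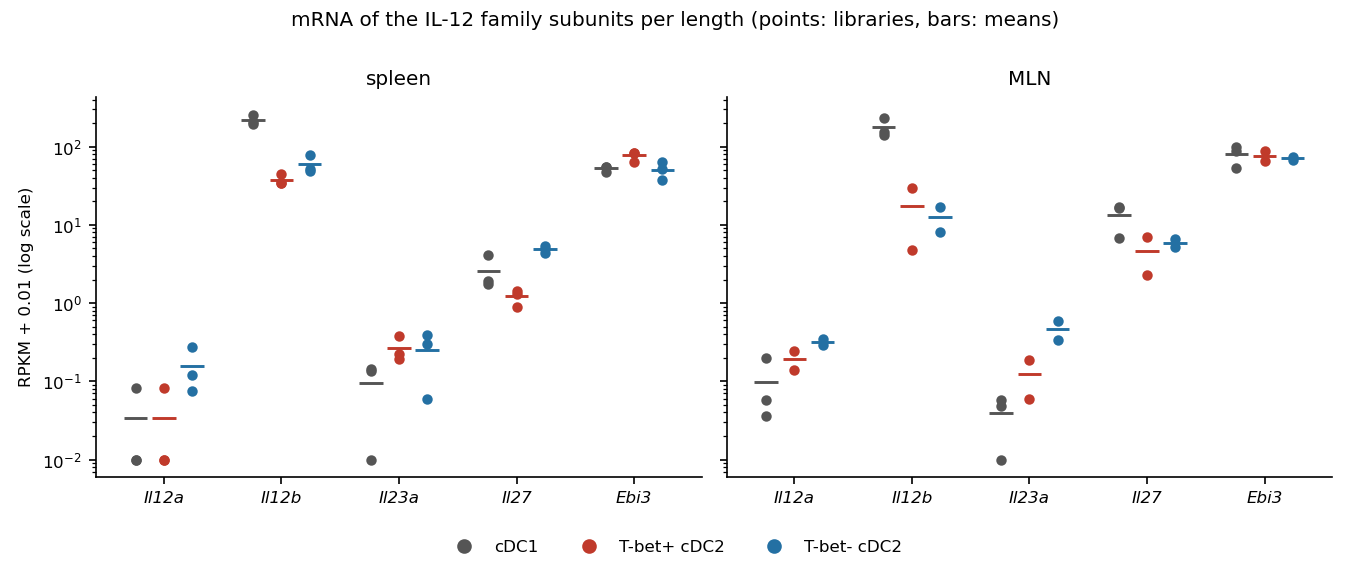
RPKM of the IL-12 family genes in each RNA library on a log axis, with 0.01 added so that libraries at 0 can be drawn, by tissue and subset (points are libraries). Il12b and Ebi3 lie far above Il12a and Il23a in all 6 groups, and Il12b is highest in cDC1 of both tissues.

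Il12b (chr11:44400063-44414033, + strand, build GRCm38) was highest in cDC1 in both tissues. In the spleen its level was 411.7, 381.8 and 504.2 CPM in the cDC1 libraries, 87.44, 66.82 and 67.37 CPM in T-bet+ cDC2 and 153.2, 96.29 and 102.2 CPM in T-bet- cDC2. The cDC1 libraries lay above all cDC2 libraries, and every T-bet+ library lay below every T-bet- library. Il12b fell in T-bet+ cDC2 relative to cDC1 by 2.52 on the log2 scale (SE 0.24, 5.73-fold lower, adjusted p = 1e-04) and in T-bet- cDC2 by 1.84 (SE 0.24, 3.59-fold lower, adjusted p = 0.00067, edgeR quasi-likelihood test with Benjamini-Hochberg adjustment over all genes tested, as for all RNA comparisons below). Between the cDC2 subsets the log2 fold change was -0.67 (SE 0.23) and missed the threshold of 0.05 (adjusted p = 0.14). All 3 pairwise comparisons of a tissue share their libraries.

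In the MLN, Il12b was 275.3, 305.3 and 461.4 CPM in cDC1, 9.316 and 58.58 CPM in T-bet+ cDC2 and 15.8 and 33.36 CPM in T-bet- cDC2. Again all cDC1 libraries lay above all cDC2 libraries, and the cDC2 subsets overlapped. Il12b fell by 3.35 in T-bet+ cDC2 relative to cDC1 (SE 0.77, 10.2-fold lower, adjusted p = 0.043) and by 3.78 in T-bet- cDC2 (SE 0.78, 13.7-fold lower, adjusted p = 0.032). With so few libraries these calls were fragile. The T-bet+ call was lost without any of 6 of the 7 MLN libraries, T-bet+ library 2 being the exception (adjusted p 0.054 to 0.11, log2 fold change -5.16 to -2.56 over the 7), with the compared subsets alone (adjusted p = 0.076) and with library GC class in the fit (adjusted p = 0.15). The T-bet- call was lost without either T-bet- library or any cDC1 library (adjusted p 0.05 to 0.27, log2 fold change -4.39 to -3.36 over the 7) and with GC class (adjusted p = 0.061).

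Il27, the p28 subunit gene (chr7:126589010-126594941, - strand), was the member called between the spleen cDC2 subsets. Its level was 1.329, 1.453 and 0.9087 CPM in T-bet+ cDC2, 5.545, 4.436 and 4.967 CPM in T-bet- cDC2 and 1.96, 1.8 and 4.198 CPM in cDC1, which amounts to 22 to 39 reads per library in T-bet+ cDC2 and 88 to 133 in T-bet- cDC2. The 3 subsets did not overlap and ranked T-bet- cDC2, cDC1, T-bet+ cDC2. Il27 was 4.06-fold lower in T-bet+ than in T-bet- cDC2 (log2 fold change -2.02, SE 0.43, adjusted p = 0.025), the only call among the 9 members tested in this comparison, where 5.38% of all 14377 genes tested were called and 3.44% were called lower. Neither cDC2 subset passed against cDC1 (adjusted p = 0.12 for T-bet+ and 0.16 for T-bet- cDC2). The call between cDC2 subsets was lost without T-bet- library 1 or 2 or any T-bet+ library (adjusted p 0.06 to 0.1) and with library GC class in the fit (adjusted p = 0.069), while the log2 fold change stayed between -2.16 and -1.84 without any spleen library.

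Of the Il27 exon length, 10.1% (103 bases) overlaps exons of Apobr, an apolipoprotein B receptor gene on the other strand. Whether counting used the strand is not stated, and without strand, reads of overlapping genes cannot be told apart. Apobr was much more abundant, at 77 ± 8.77 CPM in spleen T-bet+ cDC2, 82.9 ± 12.1 in T-bet- cDC2 and 153 ± 40.3 in cDC1 (n = 3 each), and was not called between the cDC2 subsets (log2 fold change -0.12, SE 0.22, adjusted p = 0.82). Exons of Ebi3, Il1a and Il1b also overlap a noncoding gene on the other strand, by 23.4%, 11.2% and 1.31% of their length, which leaves the same doubt.

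Ebi3 (chr17:55952640-55957022, + strand), the partner of p28, was not called between any subsets. In the spleen the libraries spanned 54.9 to 64.2 CPM in cDC1, 42.9 to 72.3 in T-bet- cDC2 and 74 to 97 in T-bet+ cDC2, so that T-bet+ cDC2 lay above the others by a small margin. The difference from T-bet- cDC2 was 1.52-fold and not called (log2 fold change 0.6, SE 0.24, adjusted p = 0.21). In the MLN all groups overlapped between 61.9 and 113 CPM.

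Il12a (chr3:68690644-68698547, + strand) and Il23a (chr10:128296139-128298752, - strand) were close to the counting limit. Il12a had 0 to 9 reads in each spleen library and 1 to 15 in each MLN library, and fell below the filter on low counts in the spleen. Il23a had 0 to 21 reads per spleen library. In the MLN it had 22 and 34 reads in T-bet- cDC2, 3 and 10 in T-bet+ cDC2, and at most 3 in any cDC1 library. The T-bet- libraries were thus the highest, but the difference from cDC1 was not called (log2 fold change 3.93, SE 1.1, adjusted p = 0.084). At these counts no difference in Il12a or Il23a between subsets was called by edgeR.

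**Figure D2:**
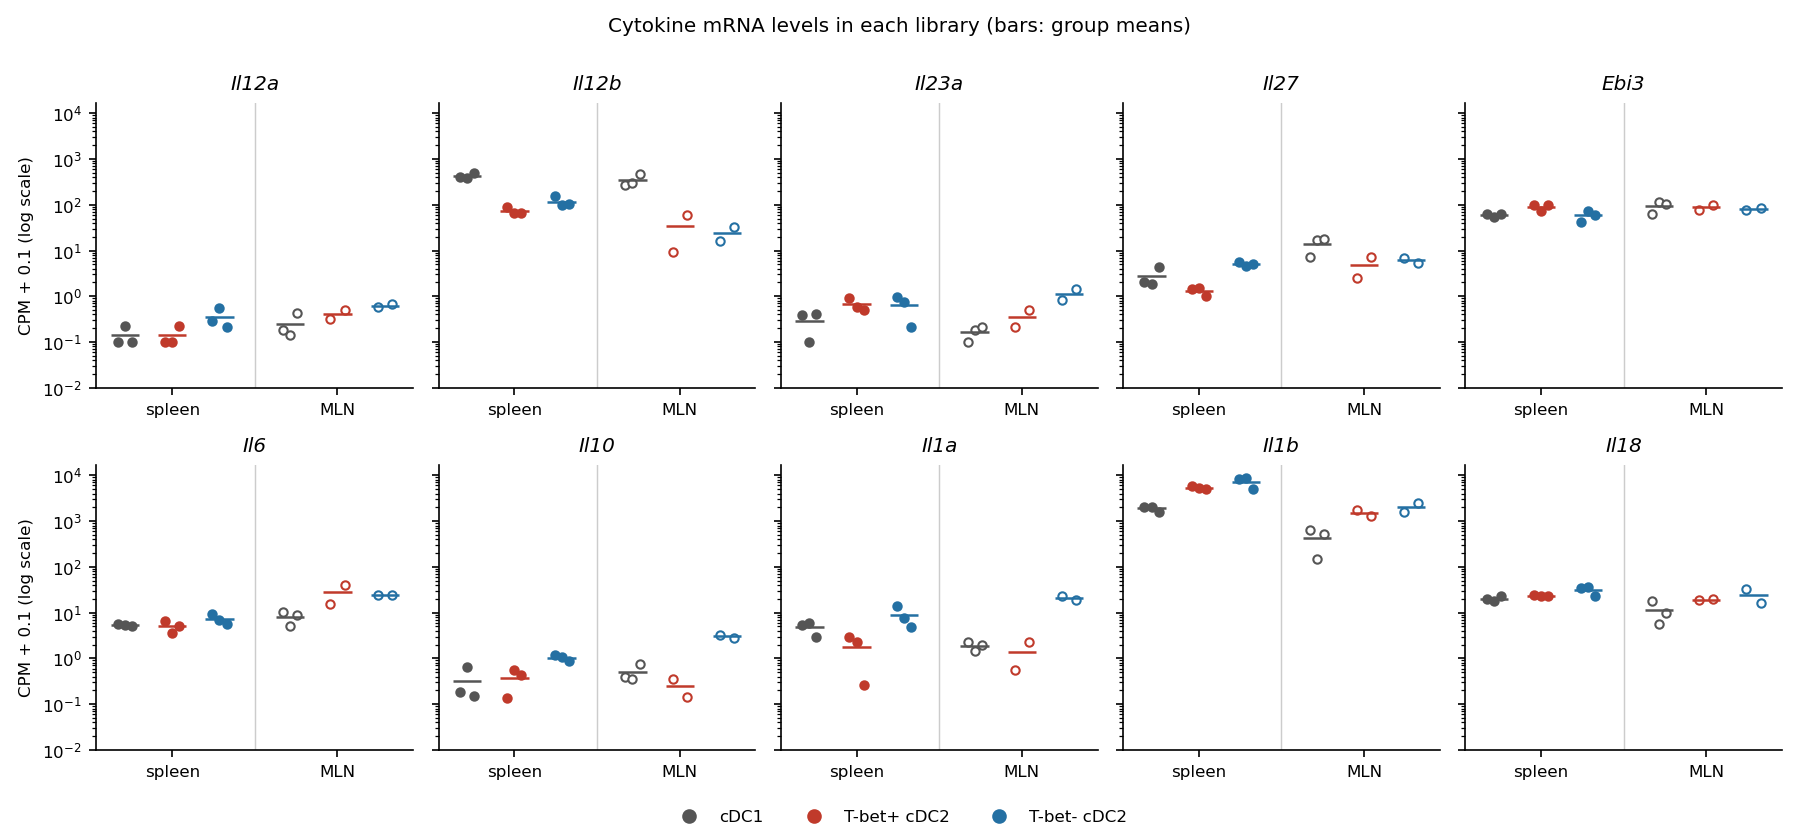
CPM of the 10 cytokine genes in each of the 16 RNA libraries on a log axis, with 0.1 added (filled points, spleen; open points, MLN; bars, group means). Il12b is highest in cDC1, within each tissue Il1b is lowest in cDC1, within each subset it is lower in MLN than in spleen, and Il10 and Il1a are highest in MLN T-bet- cDC2.

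Il6 (chr5:30013114-30019981, + strand), which encodes a cytokine that acts on T and B cells and on hepatocytes, did not separate the spleen subsets. It was 5.561, 5.36 and 5.058 CPM in cDC1, 6.293, 3.429 and 4.915 CPM in T-bet+ cDC2 and 9.432, 6.705 and 5.452 CPM in T-bet- cDC2, and the ranges overlapped. In the MLN it was 10.12, 5.05 and 8.852 CPM in cDC1, against 15.5 and 40.47 CPM in T-bet+ and 24.04 and 23.88 CPM in T-bet- cDC2. All cDC2 libraries of the MLN lay above all cDC1 libraries, but neither difference was called (log2 fold change 1.8 for T-bet+, adjusted p = 0.058, and 1.63 for T-bet- cDC2, adjusted p = 0.082).

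Il10 (chr1:131019845-131024974, + strand), the regulatory cytokine, was a rare transcript that was highest in T-bet- cDC2. In the spleen the libraries held 0.784 to 1.09 CPM (19 to 23 reads) in T-bet- cDC2, 0.0391 to 0.447 CPM in T-bet+ cDC2 and 0.0506 to 0.532 CPM in cDC1. In the MLN the T-bet- libraries held 3.07 and 2.75 CPM (91 and 71 reads), the T-bet+ libraries 0.261 and 0.0397 CPM (7 reads and 1 read) and the cDC1 libraries 0.261 to 0.648 CPM. In both tissues every T-bet- library lay above every library of the other subsets. No Il10 comparison was called by edgeR. In the MLN the log2 fold change between T-bet+ and T-bet- cDC2 was -4.25 (SE 0.95, adjusted p = 0.26), and that between T-bet- cDC2 and cDC1 was 2.91 (SE 0.75, adjusted p = 0.067).

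In the MLN comparison of the cDC2 subsets edgeR called 0 of 10 members and 0% of 15298 genes, although 2 members and 1444 genes had an unadjusted p under 0.05. Those 2 members were Il10 and Il1a. DESeq2 called both (adjusted p = 0.0035 for Il10 and 1.7e-07 for Il1a) and 328 genes in all, whereas over all 15 alternatives the adjusted p ran from 0.0035 to 0.78 for Il10 and from 1.7e-07 to 0.78 for Il1a. The direction was the same in every alternative, with log2 fold changes of -6.04 to -3.45 for Il10 without any library and of -5.53 to -3.29 for Il1a.

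Il1b (chr2:129364570-129371139, - strand) was the most abundant member in CPM and, within the spleen, higher in cDC2 than in cDC1. In the spleen it was 2066, 2047 and 1589 CPM in cDC1, 5736, 5394 and 4903 CPM in T-bet+ cDC2 and 8141, 8791 and 4946 CPM in T-bet- cDC2. All cDC2 libraries lay above all cDC1 libraries and the cDC2 subsets overlapped. Il1b rose by 1.52 on the log2 scale in T-bet+ cDC2 relative to cDC1 (SE 0.23, 2.86-fold, adjusted p = 0.0016) and by 1.97 in T-bet- cDC2 (SE 0.23, 3.93-fold, adjusted p = 0.00041). Il12b and Il1b were the 2 members called in each of these comparisons, of 9 tested, while 18.2% of all genes were called for T-bet+ cDC2 (9.97% higher and 8.2% lower) and 15.9% for T-bet- cDC2 (9.65% higher and 6.2% lower). They moved in opposite directions. Both calls of both genes held in all 16 alternatives.

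In the MLN, Il1b was 640.1, 149.1 and 514 CPM in cDC1, 1727 and 1305 CPM in T-bet+ cDC2 and 1555 and 2471 CPM in T-bet- cDC2. The order of the subsets was that of the spleen without overlap between cDC1 and cDC2, but with the wide spread of cDC1 neither difference was called (log2 fold change 1.81, adjusted p = 0.11, and 2.24, SE 0.57, adjusted p = 0.062). Of the 10 members tested in the MLN, 1 was called between T-bet+ cDC2 and cDC1 (background 6.22% of 15298 genes, 4.11% higher and 2.11% lower) and 2 between T-bet- cDC2 and cDC1 (background 5.79%, 4.34% higher and 1.44% lower).

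In the spleen, neutrophil and immediate early genes had their lowest sums in cDC1, as Il1b did. Between the cDC2 subsets Il1b averaged 7290 ± 2060 CPM in T-bet- and 5340 ± 419 in T-bet+ cDC2 (n = 3 each), with overlapping libraries and no call. Neutrophil sums were higher in T-bet- and immediate early sums in T-bet+ cDC2. The immediate early sums of T-bet- cDC2 also overlapped those of cDC1. Summed CPM of 7 neutrophil genes were 165 to 174 in spleen T-bet- cDC2, 46.2 to 59.6 in T-bet+ cDC2 and 13.7 to 21.4 in cDC1. Of the 6 tested, 5 were higher in T-bet- cDC2 and 3 in T-bet+ cDC2 than in cDC1. Of these genes Csf3r averaged 121 CPM in T-bet-, 9.66 in T-bet+ and 3.84 in cDC1, and Ly6g 0.0881, 0.164 and 0.151 CPM. In the same order S100a8 averaged 16.4, 17.2 and 4.83 CPM and S100a9 21.4, 19.9 and 6.69 CPM. The excess of the T-bet- over the T-bet+ sums thus lay mainly in Csf3r. Summed CPM of 10 immediate early genes, which tissue digestion can induce, were 21300 to 22700 in T-bet+ cDC2, 10000 to 17900 in T-bet- cDC2 and 6620 to 10900 in cDC1. Their part in the result was not tested. In bulk libraries fewer cells of a type and less RNA per cell cannot be told apart.

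Il1a (chr2:129299610-129309972, - strand), the sister cytokine of Il1b on the same chromosome, followed another order. In the spleen it was 5.241, 5.974 and 2.782 CPM in cDC1, 2.775, 2.199 and 0.1652 CPM in T-bet+ cDC2 and 13.98, 7.411 and 4.668 CPM in T-bet- cDC2. Every T-bet+ library lay below every other library, the highest by a narrow margin, yet the spread was wide and the difference between the cDC2 subsets was not called (log2 fold change -2.34, SE 0.81, adjusted p = 0.15). In the MLN it was 2.131, 1.35 and 1.835 CPM in cDC1, 0.4472 and 2.145 CPM in T-bet+ cDC2 and 23.1 and 18.77 CPM in T-bet- cDC2. The T-bet- libraries stood far above the rest. Il1a rose 12.2-fold in MLN T-bet- cDC2 relative to cDC1 (log2 fold change 3.61, SE 0.58, adjusted p = 0.012). The call was lost without either T-bet- library or cDC1 library 3 (adjusted p 0.054 to 0.1), with log2 fold changes of 3.41 to 3.79 without any MLN library.

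As a sum, genes of monocytes and macrophages were most abundant in T-bet- cDC2, the subset with the most Il1a and Il10 RNA in both tissues. Summed CPM of 8 such genes were 995 to 1370 in spleen T-bet- cDC2, 429 to 513 in T-bet+ cDC2 and 103 to 199 in cDC1. In the MLN they were 2390 and 1370 in T-bet- cDC2, 392 and 383 in T-bet+ cDC2 and 86.4 to 213 in cDC1. Of the 8 genes, 6 were lower in spleen T-bet+ than T-bet- cDC2 (background 3.44% of all genes lower). In MLN T-bet- cDC2, 6 were higher than in cDC1 (background 4.34% higher). The complement gene C1qb averaged 259 CPM in spleen and 616 CPM in MLN T-bet- cDC2, whereas Fcgr1, which encodes the CD64 excluded by the sort, averaged 6.93 and 9.88 CPM. Other genes of the list had another order. Ly6c2 averaged 2.63 and 5.35 CPM in T-bet- cDC2 and was highest in cDC1, at 4.81 CPM in spleen and 9.52 in MLN. In the MLN, Adgre1 averaged 277 CPM in T-bet+ and 89.7 in T-bet- cDC2. Their part in the result was not tested.

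Il18 (chr9:50554827-50581840, + strand), which encodes a precursor stored in many cells, showed no called difference. The spleen libraries lay between 17.6 and 35.4 CPM and the MLN libraries between 5.53 and 32.4 CPM, with group means of 20 ± 2.46 CPM in spleen cDC1, 23.4 ± 0.419 in T-bet+ cDC2 and 31.1 ± 6.72 in T-bet- cDC2 (n = 3 each). T-bet- cDC2 was the highest group, but the difference from cDC1 did not pass (log2 fold change 0.67, adjusted p = 0.087).

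**Figure D3:**
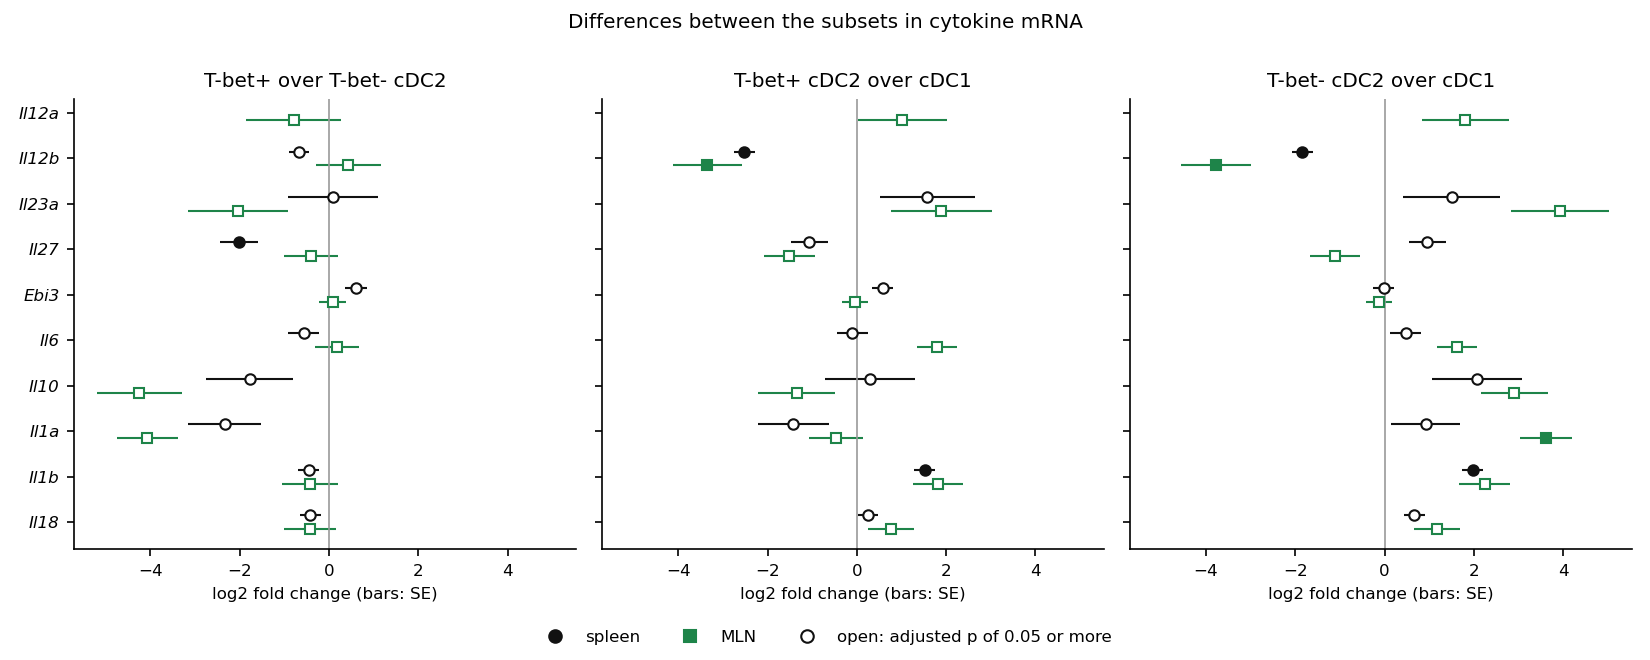
Log2 fold changes with their SE for each cytokine gene in the subset comparisons of spleen and MLN (filled points, adjusted p under 0.05). Il12b is negative and Il1b positive in both comparisons with cDC1, and Il27 is the only filled point between the spleen cDC2 subsets.

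The organs were then compared within each subset. Il1b was lower in MLN than in spleen in all 3 subsets, by 4.35-fold in cDC1 (log2 fold change -2.12, SE 0.42, adjusted p = 0.0072), 3.58-fold in T-bet+ cDC2 (-1.84, SE 0.48, adjusted p = 0.043) and 3.71-fold in T-bet- cDC2 (-1.89, SE 0.48, adjusted p = 0.034). In each subset all MLN libraries lay below all spleen libraries. Il27 rose 5.26-fold in MLN cDC1 (log2 fold change 2.4, SE 0.48, adjusted p = 0.0079) and 3.72-fold in MLN T-bet+ cDC2 (1.9, SE 0.51, adjusted p = 0.049). Its MLN libraries held 6.967, 16.59 and 17.45 CPM in cDC1, 2.348 and 7.109 CPM in T-bet+ cDC2 and 6.653 and 5.341 CPM in T-bet- cDC2. All MLN libraries of cDC1 and T-bet+ cDC2 lay above the spleen libraries of the same subset, and the T-bet- libraries overlapped those of the spleen.

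Il6 rose in both MLN cDC2 subsets, 5.58-fold in T-bet+ (log2 fold change 2.48, SE 0.41, adjusted p = 0.0065) and 3.25-fold in T-bet- cDC2 (1.7, SE 0.41, adjusted p = 0.027), and Il12b fell 4.89-fold in MLN T-bet- cDC2 (log2 fold change -2.29, SE 0.58, adjusted p = 0.034). The members called were 2 of 10 in cDC1 (background 11.7% of 16795 genes, 7.75% higher and 3.93% lower), 3 of 10 in T-bet+ cDC2 (5.09%, 3.79% higher and 1.3% lower) and 3 of 10 in T-bet- cDC2 (5.95%, 4.36% higher and 1.59% lower).

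Most of these calls depended on the libraries used. Il1b in cDC1 held in all 22 alternatives and Il27 in 20, being lost without spleen cDC1 library 1 or 2 (adjusted p 0.051 to 0.052). In T-bet+ cDC2, Il27 held in 9 of 22 and was lost without any of 11 libraries (adjusted p 0.051 to 0.57, log2 fold change 0.92 to 2.51 without any library), namely MLN T-bet- 1 and 2, MLN T-bet+ 2, MLN cDC1 2 and 3, spleen T-bet- 2, all spleen T-bet+ and spleen cDC1 1 and 2. Il1b in T-bet+ cDC2 held in 11 and was lost without any of 9 libraries (adjusted p 0.051 to 0.43, log2 fold change -2.04 to -1.64), namely all MLN cDC2 libraries, MLN cDC1 3, all spleen T-bet+ and spleen cDC1 2. Il6 in T-bet+ cDC2 was lost only without MLN T-bet+ library 2 (adjusted p = 0.19, log2 fold change 1.66 to 3.04 without any library). Both Il27 and Il1b in T-bet+ cDC2 were also lost with library GC class in the fit (adjusted p = 0.15 and 0.076). In T-bet- cDC2, Il12b (adjusted p 0.059 to 0.32) and Il1b (0.07 to 0.3) were each lost without either MLN T-bet- library or spleen T-bet- library 1 or 2, and Il6 without either MLN T-bet- library or spleen T-bet- library 2 or 3 (0.064 to 0.15).

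Mature dendritic cell genes were mostly higher in the MLN. Their summed CPM were 1520 to 4940 in spleen libraries and 2950 to 15300 in MLN libraries. MLN T-bet+ library 1, at 2950 CPM, lay below all spleen T-bet+ libraries (4200 to 4840). Ccr7 made up most of these sums, at 4220 CPM on average in spleen and 5050 ± 4100 in MLN T-bet+ cDC2. The sums therefore mainly reflect this gene. The other genes of the list, apart from the rare Il4i1 (0.142 and 0.0782), averaged higher in MLN T-bet+ cDC2. Examples are Ccl22 (13.2 and 768 ± 564) and Cacnb3 (101 and 845 ± 856). Of 6 genes tested, 6 were higher in MLN cDC1, 4 in T-bet+ and 5 in T-bet- cDC2. Summed CPM of the 7 neutrophil genes, which like Il1b were lowest in cDC1 in the spleen, were lower in the MLN. They were 0.328 to 7.01 in cDC1, 4.7 to 7.94 in T-bet+ and 46.6 to 66.1 in T-bet- cDC2. Of 6 tested, 2 were called lower in each subset. The 10 immediate early genes summed to 3490 to 8120 CPM in MLN cDC1, 4970 to 10200 in T-bet+ and 5330 to 12400 in T-bet- cDC2, with list medians of -0.99, -1.93 and -1.24 relative to spleen (all genes 0.01, 0 and -0.04) and 0 of 10 called in edgeR. The part of these 3 lists in the result was not tested. Il27 in MLN cDC1 and T-bet+ cDC2 was lowest in the libraries with the lowest mature dendritic cell sums. It was 6.967 CPM in cDC1 library 1 and 2.348 CPM in T-bet+ library 1. The latter was still above the spleen T-bet+ libraries (0.9087 to 1.453 CPM), whose mature sums were higher. Whether the difference between T-bet+ and T-bet- cDC2 itself differed between organs was tested for all 10 members and called for 0 by edgeR (background 0.00595% of 16795 genes), with 1 member at an unadjusted p under 0.05. That member was Il27 (difference of log2 fold changes 1.66, SE 0.73, adjusted p = 0.95 in edgeR).

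ATAC-seq showed where the chromatin around these genes differed in the spleen. Of 177956 windows of 150 bases centred on peak summits, 51 had a member as closest gene within 50000 bases, 18 at Il12a, 11 at Il10, 8 at Il27, 5 each at Il1a and Il6 and 2 each at Il1b and Il18. Il12b, Il23a and Ebi3 had none, because other annotated genes lie closer to their neighbouring peaks. Counting protein-coding genes alone gave 97 windows, which adds 8 at Il12b. Of the 50 closest-gene windows tested, 3 were less and 0 more accessible in T-bet+ than T-bet- cDC2 (adjusted p under 0.01 and absolute log2 fold change over 0.5, background 6.28% of 166547 windows, 3.92% more and 2.36% less accessible). Against cDC1, 9 were called in T-bet+ cDC2 (2 more and 7 less accessible, background 23%, 11% more and 12% less) and 8 in T-bet- cDC2 (5 more and 3 less, background 17.9%, 7.32% more and 10.6% less). These shares are near the background. Windows closest to a noncoding gene, which are named as such below, are not in these counts. Windows of the same peak can overlap and share reads.

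The sequences of the windows that carry the differences below are shown in the direction of their gene, with matches to 10 known motifs in capitals. The motifs were AP-1 (TGANTCA), C/EBP (TTGCNNAA), CRE (TGACGTCA), EICE (GGAA, NN and GAAA in a row), ISRE (GAAA, NN and GAAA), NF-kB (GGGA, N and TTTCC), PU.1 (GAGGAAG), RUNX (TGTGGTT), T-box (AGGTGTNA) and, in the promoter only, TATA box (TATAAA), searched on both strands. EICE and ISRE end in the same letters, so that their matches can overlap. Of all 177956 windows, 7.9% hold AP-1, 5.89% C/EBP, 0.332% CRE, 3.19% EICE, 2.39% ISRE, 0.433% NF-kB, 13.2% PU.1, 5.23% RUNX and 1.92% T-box. A match describes letters, and the absence of a match says only that these letters are not in the window.

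At Il12b, a cluster of windows about 10 kb before the gene was more open in cDC2 than in cDC1, the subset with the most Il12b RNA. Their closest annotated gene is the noncoding Gm12155, and Il12b is the closest protein-coding gene. A pair of overlapping windows, at chr11:44389988-44390137 and chr11:44390114-44390263 (GRCm38, + strand, intergenic), are printed because they carry this difference, with a C/EBP and a RUNX match in the second.
Il12b distal 1: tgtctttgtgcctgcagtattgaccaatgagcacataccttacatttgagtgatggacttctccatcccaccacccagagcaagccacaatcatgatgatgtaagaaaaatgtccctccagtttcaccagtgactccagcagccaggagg
Il12b distal 2: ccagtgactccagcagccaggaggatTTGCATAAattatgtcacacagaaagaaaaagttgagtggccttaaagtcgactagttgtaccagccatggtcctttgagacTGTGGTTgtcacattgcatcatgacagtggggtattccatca

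The window at -10001 bases from the Il12b start had 8.92 and 7.02 CPM in the T-bet- libraries, 3.24 and 6.11 in T-bet+ and 1.76 and 1.42 in cDC1. It was more accessible than in cDC1 in T-bet- cDC2 (log2 fold change 2.3, SE 0.37, adjusted p = 1e-06) and in T-bet+ cDC2 (1.54, SE 0.39, adjusted p = 0.0012), the latter call being lost with DESeq2 and without T-bet+ library 2 or cDC1 library 2 (log2 fold change 1.02 to 1.93 over the alternatives). The window at -9875 bases had 5.99 and 7.82 CPM in T-bet-, 5.84 and 6.74 in T-bet+ and 3.06 and 1.29 in cDC1 libraries, with log2 fold changes of 1.65 (adjusted p = 0.00018) and 1.5 (adjusted p = 0.00051), both lost without cDC1 library 2 (lowest log2 fold changes over the alternatives 1.18 and 1.04). In both windows every cDC2 library lay above every cDC1 library. At -17841 bases the order was the reverse, with 11.9 and 14 CPM in cDC1, 8.11 and 10.1 in T-bet+ and 5.26 and 5.81 in T-bet- cDC2 (T-bet- against cDC1, log2 fold change -1.22, SE 0.26, adjusted p = 0.00017, lost without cDC1 library 2, range -1.34 to -1.1). No window assigned to Il12b lay at its start, so the promoter of this gene was not compared.

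At Il12a, whose RNA was close to 0 in the spleen, chromatin differed in both directions. The distal window chr3:68676880-68677029 (+ strand, intergenic) fell in T-bet+ cDC2 and holds an AP-1 match directly followed by a C/EBP match. The intragenic window chr3:68693528-68693677 (+ strand, 391 bases from the nearest annotated transcript start) separated cDC2 from cDC1 and holds none.
Il12a distal: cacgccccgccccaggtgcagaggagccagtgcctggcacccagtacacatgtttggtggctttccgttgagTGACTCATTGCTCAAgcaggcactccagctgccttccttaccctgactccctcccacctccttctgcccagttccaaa
Il12a intragenic: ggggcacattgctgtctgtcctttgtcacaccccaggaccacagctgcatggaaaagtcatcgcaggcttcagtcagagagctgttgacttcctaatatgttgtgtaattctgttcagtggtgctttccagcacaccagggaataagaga

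The distal window had 11.6 and 7.12 CPM in T-bet-, 2.6 and 4.66 in T-bet+ and 6.71 and 3.35 in cDC1 libraries. It was 2.55-fold less accessible in T-bet+ than T-bet- cDC2 (log2 fold change -1.35, SE 0.32, adjusted p = 0.0018), a call lost with DESeq2 and without T-bet- library 1 or T-bet+ library 1 (log2 fold change -1.83 to -0.96). The intragenic window had 6.84 and 8.72 CPM in T-bet-, 4.43 and 5.6 in T-bet+ and 1.29 and 1.16 in cDC1 libraries, and no subset overlapped another. Relative to cDC1 it was 4.03-fold more accessible in T-bet+ (log2 fold change 2.01, SE 0.4, adjusted p = 3.4e-05) and 6.28-fold in T-bet- cDC2 (2.65, SE 0.38, adjusted p = 6.1e-08), and both calls held in all 12 alternatives. The window nearest the gene start, at 894 bases, had 1.95 to 3.61 CPM in all 6 libraries and was not called.

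At Il27, the windows at -132 and -426 bases from the start had 1.83 to 6.24 and 2.81 to 6 CPM, respectively, with overlapping subsets. Neither was called in any comparison, and the log2 fold change between T-bet+ and T-bet- cDC2 was -0.03 (SE 0.39) at -132 bases, whereas the RNA differed by -2.02. Of the 8 Il27 windows 7 were tested and 0 were called. Among the windows within 50000 bases that lie closer to other genes, 2 near Nupr1, at -30639 and -31071 bases from the Il27 start, were less accessible in T-bet+ than T-bet- cDC2 (log2 fold change -2.41, SE 0.45, adjusted p = 5.7e-05, held in all 12 alternatives, and -1.58, SE 0.37, adjusted p = 0.0018, held in 9). The first had 4.28 and 6.92 CPM in T-bet-, 0.541 and 1.55 in T-bet+ and 1.06 and 0.129 in cDC1 libraries. Windows that lie closer to another protein-coding gene are not described at the other loci, although some were called there too. Within 50000 bases, 2 were more and 1 less accessible in T-bet+ than T-bet- cDC2 at Il18, and 2 were more accessible at Il23a. Whether any of these windows act on a cytokine gene was not tested.

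At Il10, a window on each side of the gene start was least open in T-bet+ cDC2, whereas the window nearest the start, at 1287 bases, had 10.8 and 10.6 CPM in T-bet-, 12.4 and 8.5 in T-bet+ and 10.1 and 9.15 in cDC1 libraries and was not called between the cDC2 subsets (log2 fold change -0.04, SE 0.24). The window at -2539 bases had 3.3 and 6.01 CPM in T-bet-, 1.08 and 1.04 in T-bet+ and 7.41 and 8.89 in cDC1 libraries, and no subset overlapped another. It was 4.42-fold less accessible in T-bet+ than T-bet- cDC2 (log2 fold change -2.14, SE 0.41, adjusted p = 9e-05), lost without T-bet- library 2 (weakest log2 fold change -1.63), and 7.63-fold less than in cDC1 (-2.93, SE 0.39, adjusted p = 4.3e-09), which held in all 12 alternatives. The window at 1861 bases inside the gene had 10.3 and 9.62 CPM in T-bet-, 4.33 and 4.56 in T-bet+ and 11.2 and 9.27 in cDC1 libraries. T-bet+ cDC2 lay below both other subsets (log2 fold change against T-bet- cDC2 -1.16, SE 0.28, adjusted p = 0.0019, and against cDC1 -1.21, SE 0.28, adjusted p = 0.00032). The former call was lost with DESeq2 and without either T-bet- library or T-bet+ library 1 (-1.24 to -1.11), and the latter without cDC1 library 1 (-1.39 to -1.06).

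An intronic Il10 window at 2991 bases was instead open mainly in cDC1, with 13.3 CPM in both cDC1 libraries against 2.05 to 3.11 in the cDC2 libraries. It was 6.12-fold less accessible in T-bet+ (log2 fold change -2.61, SE 0.32, adjusted p = 2.2e-10) and 4.65-fold less in T-bet- cDC2 (-2.22, SE 0.31, adjusted p = 1.7e-08), and both calls held in all 12 alternatives. Il10 RNA did not follow this order, since spleen cDC1 held 1 to 13 Il10 reads per library and T-bet- cDC2 19 to 23. The most open Il10 window, at 18441 bases, had 17.1 to 22.9 CPM in all libraries and was not called.

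At Il6, the window nearest the start, chr5:30011945-30012094 (+ strand, -1095 bases), was more open in cDC1 than in both cDC2 subsets. It is printed for its ISRE match, a motif of interferon regulatory factors.
Il6 upstream: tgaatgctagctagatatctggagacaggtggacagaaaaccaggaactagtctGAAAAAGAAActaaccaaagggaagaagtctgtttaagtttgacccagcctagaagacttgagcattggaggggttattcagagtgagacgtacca

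This Il6 window had 8.12 and 8.5 CPM in cDC1, 0.649 and 1.35 in T-bet+ and 1.47 and 2 in T-bet- libraries. It was 8.21-fold less accessible in T-bet+ cDC2 (log2 fold change -3.04, SE 0.4, adjusted p = 3.3e-09) and 4.72-fold less in T-bet- cDC2 (-2.24, SE 0.37, adjusted p = 1.5e-06) than in cDC1, and both calls held in all 12 alternatives. Il6 RNA was not called between these subsets in the spleen, where the groups overlapped. The most open Il6 window, at 23019 bases, had 10.8 to 15.8 CPM and was not called.

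The Il1a and Il1b genes lie next to each other, and their windows differed in several ways. Printed are the window before Il1a (chr2:129310189-129310338), which was open in cDC1, the window before Il1b with the largest called rise in T-bet+ cDC2 over cDC1 among its upstream windows (chr2:129373363-129373512, which overlap an exon of the noncoding gene Il1bos on the other strand), a distal Il1b window that separated the cDC2 subsets (chr2:129385478-129385627), and the 250 bases before the Il1b start (chr2:129371140-129371389, RefSeq start, GRCm38), all read from the - strand. The windows at -2298, -14413 and 10924 bases from the Il1b start and at -6037 bases from the Il1a start lie closest to a noncoding gene or pseudogene, with Il1b or Il1a as closest protein-coding gene. The promoter is shown as the landmark between these windows. Of 32851 RefSeq promoters of that length 12.4% hold the TATA box letters.
Il1a upstream: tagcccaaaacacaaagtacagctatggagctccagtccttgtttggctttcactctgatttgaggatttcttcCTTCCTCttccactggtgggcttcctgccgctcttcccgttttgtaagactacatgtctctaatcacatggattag
Il1b upstream: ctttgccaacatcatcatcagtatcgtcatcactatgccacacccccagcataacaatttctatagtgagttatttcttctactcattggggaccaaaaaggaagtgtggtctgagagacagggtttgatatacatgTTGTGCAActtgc
Il1b distal: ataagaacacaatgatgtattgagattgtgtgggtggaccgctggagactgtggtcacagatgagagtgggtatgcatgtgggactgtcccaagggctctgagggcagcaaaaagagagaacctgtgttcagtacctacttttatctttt
Il1b promoter: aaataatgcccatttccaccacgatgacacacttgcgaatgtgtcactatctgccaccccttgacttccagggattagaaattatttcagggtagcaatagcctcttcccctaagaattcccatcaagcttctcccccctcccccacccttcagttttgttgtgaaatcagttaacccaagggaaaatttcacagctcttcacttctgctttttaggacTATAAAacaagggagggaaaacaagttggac

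The window at -291 bases from the Il1a start had 4.24 and 4.89 CPM in cDC1, 1.34 and 1.6 in T-bet- and 1.41 and 0.829 in T-bet+ libraries. It was 4.08-fold less accessible in T-bet+ cDC2 than in cDC1 (log2 fold change -2.03, SE 0.43, adjusted p = 1e-04, held in all 12 alternatives) and 3.06-fold less in T-bet- cDC2 (-1.61, SE 0.41, adjusted p = 0.0017), the latter lost with DESeq2 and without either T-bet- library or cDC1 library 2 (-1.74 to -1.5). Further upstream, at -6037 bases, the highest values were in T-bet+ cDC2 (19.7 and 14.5 CPM), followed by T-bet- cDC2 (9.17 and 6.82) and cDC1 (4.71 and 3.35). That window was 2.14-fold more accessible in T-bet+ than T-bet- cDC2 (log2 fold change 1.1, SE 0.25, adjusted p = 0.00096), a call lost with DESeq2 and without T-bet- library 2 or T-bet+ library 1 (0.87 to 1.32), whereas Il1a RNA was lowest in T-bet+ cDC2.

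At Il1b, the window on the start (-17 bases) had 4.25 to 10.1 CPM and was not called. The window at -2298 bases had 31 and 27.1 CPM in T-bet-, 39.5 and 30.2 in T-bet+ and 10.5 and 13.8 in cDC1 libraries, higher than 96.2% of all windows in mean level. Relative to cDC1 it was 2.86-fold more accessible in T-bet+ (log2 fold change 1.52, SE 0.2, adjusted p = 2.4e-09) and 2.39-fold in T-bet- cDC2 (1.26, SE 0.2, adjusted p = 6.2e-07), and both calls held in all 12 alternatives. An overlapping window at -2377 bases was more open still, with 32.1 and 31.3 CPM in T-bet-, 48.5 and 35 in T-bet+ and 15.8 and 19.3 in cDC1 libraries, and was also called against cDC1 in T-bet+ (log2 fold change 1.24) and in T-bet- cDC2 (0.85). Il1b RNA was 2.86-fold and 3.93-fold higher in the same subsets.

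The distal Il1b window at -14413 bases was low in T-bet- cDC2 (1.59 and 1.8 CPM) and higher in T-bet+ cDC2 (7.57 and 6.01) and cDC1 (5.41 and 4.51). It was 3.95-fold more accessible in T-bet+ than T-bet- cDC2 (log2 fold change 1.98, SE 0.36, adjusted p = 3.8e-05, held in all 12 alternatives) and 2.91-fold less accessible in T-bet- cDC2 than in cDC1 (-1.54, SE 0.38, adjusted p = 0.00097, lost without T-bet- library 1 or cDC1 library 1, -1.66 to -1.4). On the far side of the gene, a window at 10924 bases had 13.2 and 16.9 CPM in cDC1, 4.22 and 4.87 in T-bet+ and 7.82 and 6.32 in T-bet- libraries (T-bet+ against cDC1, log2 fold change -1.73, SE 0.27, adjusted p = 2.3e-07). Thus more and less accessible windows lay side by side around Il1b.

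At Il18, the window on the start (31 bases) was highly open, with 25.1 to 41 CPM in the 6 libraries, above 97.3% of windows. It was not called in any comparison, and Il18 RNA was not called either.

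**Figure D4:**
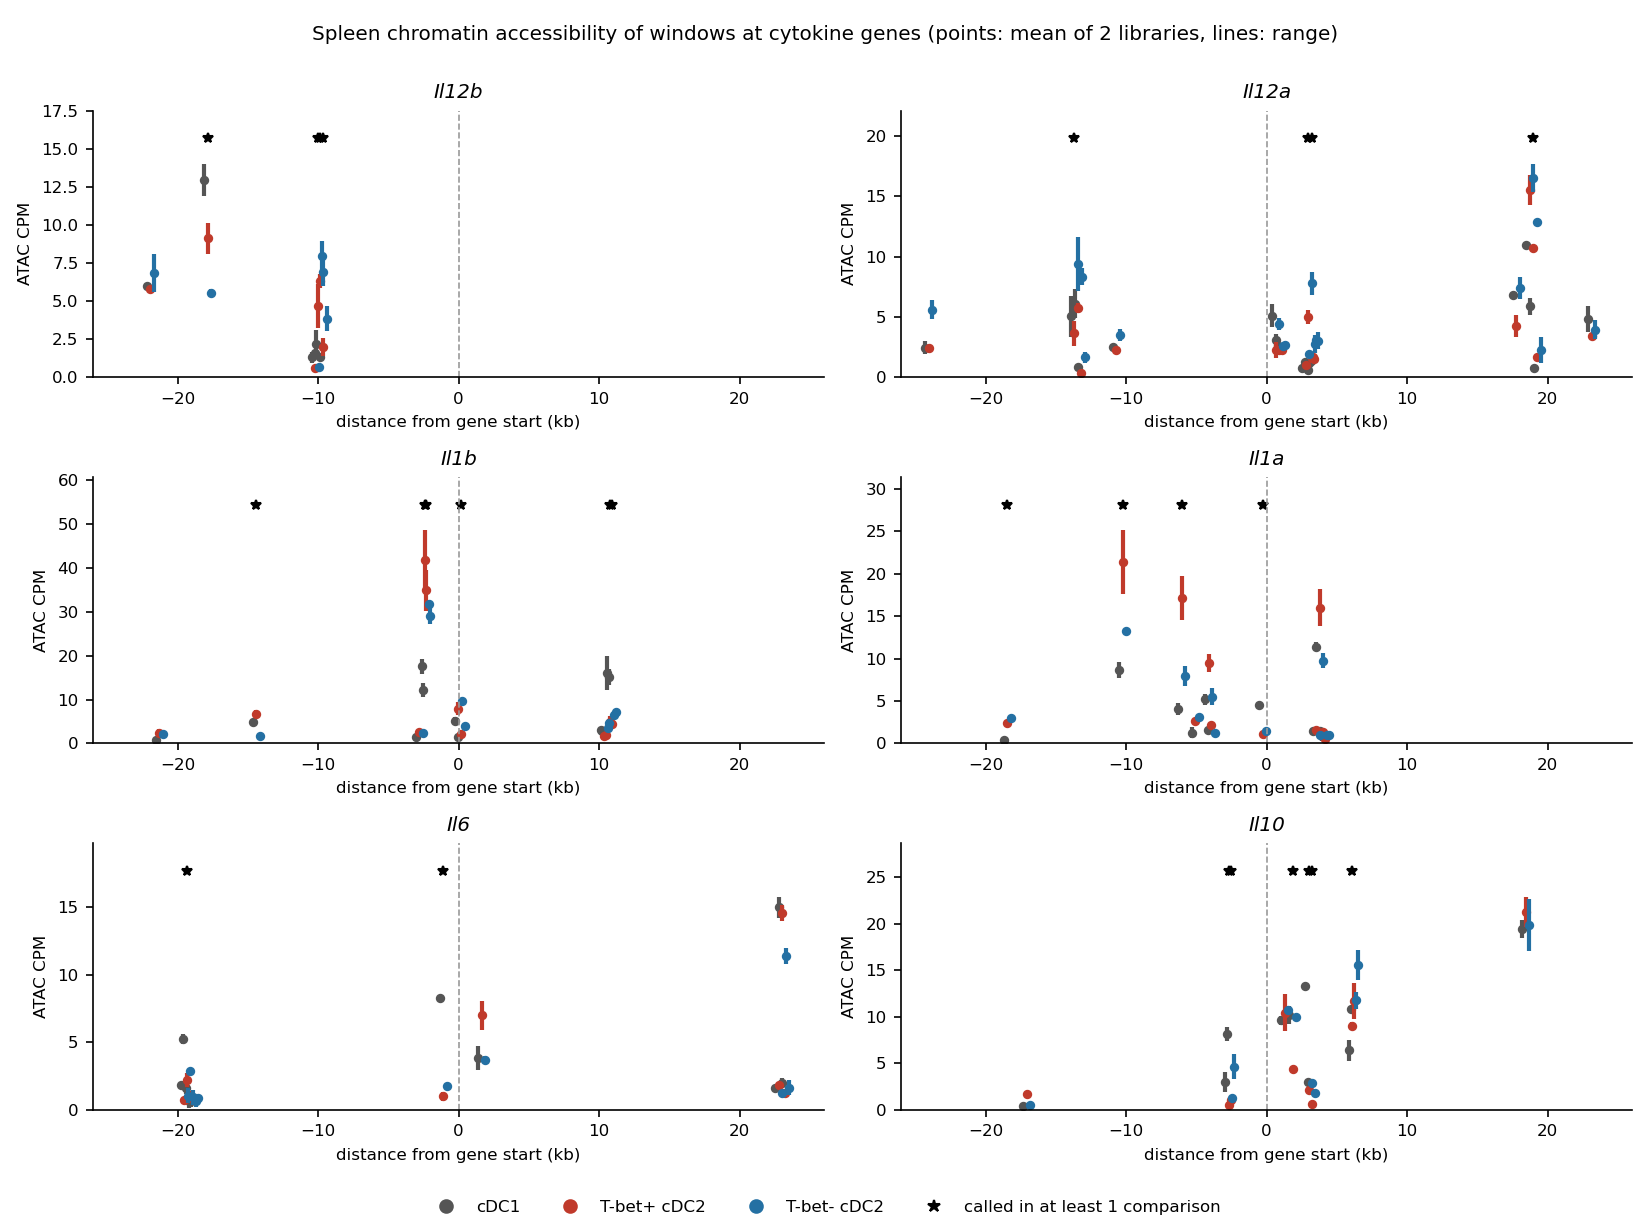
ATAC CPM of windows against their distance from the gene start for Il12b, Il12a, Il1b, Il1a, Il6 and Il10, within 25 kb on each side (points, means of 2 libraries of a subset; lines, their range; subsets drawn side by side for clarity; stars, windows called in a comparison). The windows 10 kb before Il12b are low in cDC1, and the Il6 window at -1095 bases is high in cDC1 only.

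The other genes of these pathways were counted from lists of receptors, inhibitors, processing enzymes, signalling proteins and regulators. Over all genes, 1.95% were called higher and 3.44% lower in T-bet+ than T-bet- cDC2, 9.97% higher and 8.2% lower in T-bet+ cDC2 than cDC1, and 9.65% higher and 6.2% lower in T-bet- cDC2 than cDC1, which is the background for the counts of each list. Il1rn, the IL-1 receptor antagonist, averaged 3.25 ± 1.27 CPM in spleen cDC1, 28.3 ± 3.6 in T-bet+ and 332 ± 89 in T-bet- cDC2 (n = 3 each). It was lower in T-bet+ than T-bet- cDC2 (log2 fold change -3.56, SE 0.32, adjusted p = 0.00038) and higher than in cDC1 in both cDC2 subsets (3.16, adjusted p = 0.00013, and 6.72, adjusted p = 5e-06). Il1r2, the decoy receptor of IL-1, averaged 42.8 ± 11 CPM in cDC1, 1230 ± 568 in T-bet+ and 691 ± 352 in T-bet- cDC2 (log2 fold change against cDC1 4.87, adjusted p = 0.00025, and 4.05, adjusted p = 0.00069). Of the 4 inhibitors, 1 was lower in T-bet+ than T-bet- cDC2 (list median log2 fold change -0.62, all genes -0.01), and 2 were higher in each cDC2 subset than in cDC1 (list medians 1.6 and 2.52, all genes 0.03 and -0.01).

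Of 9 genes tested that process and release IL-1 beta and IL-18, 2 were higher in T-bet+ and 5 in T-bet- cDC2 than in cDC1, 0 were lower, and 0 differed between the cDC2 subsets in edgeR (list medians 0.58, 1.04 and -0.29). Casp1, the converting enzyme, averaged 23.9 CPM in cDC1, 68.6 in T-bet+ and 83.5 in T-bet- cDC2 (log2 fold change 1.56, adjusted p = 0.003, and 1.85, adjusted p = 0.0013). Nlrc4, the core of an inflammasome that detects bacterial proteins, averaged 2.75, 20.9 and 23.8 CPM (2.96, adjusted p = 1e-04, and 3.15, adjusted p = 7.5e-05), and Gsdmd, the pore-forming gasdermin, rose in T-bet- cDC2 (1.04, adjusted p = 0.007).

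Of 5 receptor genes of the IL-1 family tested, from a list that also holds Il1rl1 and Il1rl2, 1 was lower in T-bet+ than T-bet- cDC2 (list median -3.57). This was Il1rap, the shared accessory chain, at 9.72 ± 6.62 CPM in cDC1, 0.861 ± 0.338 in T-bet+ and 13 ± 6.93 in T-bet- cDC2 (log2 fold change -3.91, SE 0.65, adjusted p = 0.0091, lost without T-bet+ library 2 or 3 at adjusted p up to 0.057). It was also lower in T-bet+ cDC2 than in cDC1 (-3.44, adjusted p = 0.0049), the list's only call there (median -2.31). In T-bet- cDC2, 2 were higher than in cDC1 (median 1.82), both rare: Il18rap, a chain of the IL-18 receptor, at 3.07 against 0.284 CPM (adjusted p = 0.034, lost without T-bet- library 1 or 2, T-bet+ library 3 or cDC1 library 1 and with the compared subsets alone, at adjusted p up to 0.099), and Il1rl2, the IL-36 receptor chain, at 2.14 CPM against 0 in all cDC1 libraries (adjusted p = 0.02, lost without cDC1 library 1 or 2 at adjusted p up to 0.06). Of the other ligands of the IL-1 family, 3 are in the count table, 1 could be tested in the spleen and 0 were called there by edgeR.

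On the receiving side of IL-12 family cytokines, 1 of 4 receptor genes tested was higher in each cDC2 subset than in cDC1 (list medians 0.6 and 1.1) and 0 differed between the cDC2 subsets in edgeR (median -0.35). It was Il27ra, the IL-27 receptor, at 1.29 CPM in cDC1, 11.5 in T-bet+ and 14.7 in T-bet- cDC2 (log2 fold change 3.19, adjusted p = 0.00057, and 3.56, adjusted p = 0.00035). Neither of the 2 IL-10 receptor genes was called by edgeR in the spleen (medians -0.09 to 0.55). Of 14 signalling genes, 1 was higher in T-bet+ than T-bet- cDC2 (Jak2, log2 fold change 0.87, adjusted p = 0.049, held in 4 of 16 alternatives and lost without any of 8 of the 9 spleen libraries, cDC1 library 3 being the exception, at adjusted p up to 0.18). Against cDC1, 2 were higher and 1 lower in T-bet+ and 3 higher and 1 lower in T-bet- cDC2. Stat4, the transducer of IL-12 and IL-23 signals, averaged 3.43 CPM in cDC1, 44.6 in T-bet+ and 27 in T-bet- cDC2 (3.73, adjusted p = 1e-04, and 3.02, adjusted p = 0.00033), and Tyk2, a Janus kinase, was lower in both (-1.32, adjusted p = 0.012, and -1.29, adjusted p = 0.015, each lost without cDC2 library 1 or 2 of that subset at adjusted p up to 0.057 and 0.062).

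Among 25 transcription factors known to act on these cytokine genes, 5 were higher and 2 lower in T-bet+ cDC2 than in cDC1 (list median 0.95) and 6 higher and 2 lower in T-bet- cDC2 (median 0.88). Irf8, a factor of cDC1 identity that acts on Il12b, averaged 3550 CPM in cDC1, 62.8 in T-bet+ and 281 in T-bet- cDC2 (log2 fold change -5.8, adjusted p = 2.1e-05, and -3.63, adjusted p = 0.00021). Nfkb1, an NF-kB subunit, was higher in both cDC2 subsets (2.52, adjusted p = 1.7e-05, and 2.16, adjusted p = 4.7e-05), as was Bhlhe40, which represses Il10 in T cells (2.42, adjusted p = 1.8e-05, and 2.84, adjusted p = 8.6e-06). Between the cDC2 subsets 1 was higher and 1 lower in T-bet+ cells. These were Tbx21, the sorted gene (3.94, adjusted p = 0.019, lost without T-bet- library 2 or any T-bet+ library and with library GC class at adjusted p up to 0.072), and Irf8 (-2.17, SE 0.37, adjusted p = 0.0098, lost without T-bet+ library 1 or 2 at adjusted p up to 0.057).

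Of 8 genes that control decay of cytokine mRNA, 3 were higher and 1 lower in each cDC2 subset than in cDC1 (list medians 0.54 and 0.37). Arid5a, which stabilises Il6 mRNA, averaged 33 CPM in cDC1, 99.5 in T-bet+ and 240 in T-bet- cDC2 (1.63, adjusted p = 0.0013, and 2.91, adjusted p = 5.3e-05). It was also the 1 gene of the list that was lower in T-bet+ than T-bet- cDC2 (-1.28, adjusted p = 0.014, lost without T-bet- library 1 or 2 or any T-bet+ library at adjusted p up to 0.075). Zfp36, which promotes decay of AU-rich mRNAs, was higher in both cDC2 subsets than in cDC1 (1.31, adjusted p = 0.00025, and 1.13, adjusted p = 0.00069) and Zc3h12c, a relative of the ribonuclease Zc3h12a, lower (-1.62, adjusted p = 0.0029, and -2.12, adjusted p = 0.00079).

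The genes whose log2 CPM followed each called member most closely over the 16 RNA libraries, among 16794 other genes, were Fosl2 (Pearson r = 0.98) and Pde4b (0.97) for Il1b, Lrrc3 (0.94) and RP23-304O9.1 (0.93) for Il12b, Scpep1 (0.94) and Trip10 (0.92) for Il27, F2rl1 (0.92) and RP23-287L7.1 (0.92) for Il6, and P2ry12 (0.91) and Galk2 (0.86) for Il1a. These are descriptions over libraries that share subsets and tissues.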

How the data were processed

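The deposited tables of RNA and ATAC counts were used as raw read counts. For RNA, the authors amplified cDNA (SMARTer), aligned reads with HISAT2 2.1.0 to mm10 and counted them per gene with Rsubread. For ATAC, 50000 cells were used, the authors aligned with Bowtie2 2.2.5, shifted reads, called peaks with MACS2 2.1.1.20160309 from the pooled replicates and counted the reads of each library in windows of 150 bases at summits. The deposited -log10 value of each summit, made by the authors' peak caller, was not used. Pooled peak calls mean that libraries are compared on common windows. The labels and figure legends were followed for RFP+ and RFP- sorts, since a methods sentence swaps them.

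CPM and RPKM were computed here from TMM-scaled counts and summed exon length. Differences were tested with edgeR 4.0.16 (R 4.3.3; limma 3.58.1) by the quasi-likelihood test after filterByExpr, with Benjamini-Hochberg adjustment over all features: 9 spleen, 7 MLN or all 16 RNA libraries in each fit at adjusted p under 0.05, and 6 ATAC libraries at adjusted p under 0.01 and absolute log2 fold change over 0.5. SE is the log2 fold change divided by the square root of F. Each window took the gene nearest to its peak, up to 50000 bases away. All 10 members were named, with up to 3 called genes of each pathway list per spleen comparison, the 2 best-correlated genes of each called member, and at each locus the windows nearest the start, highest, and up to 3 most changed per comparison. The 2 windows near Nupr1 were named outside this rule. Alternatives included DESeq2 1.42.0, its size factors, no filter, a replicate block, and leaving out each library. The newer dispersion estimate and GC class for MLN and all-library fits were chosen after seeing the data. The test was tested on simulated data. The members and lists were chosen with earlier results of these data known. Sequences came from GRCm38 and RefSeq.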

Additional observations from a re-analysis of the deposited data

How the results depend on the processing

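The number of cytokine genes called depended on the fit, and the cause was not tested. Between spleen T-bet+ and T-bet- cDC2 it was 1, and 2 with DESeq2 or without the filter on low counts, 0 with a replicate block or library GC class, and 0 to 2 with each library left out. Between the MLN cDC2 subsets it was 0, and 2 with DESeq2 or without the filter, 1 with a replicate block by the number in the library name, and 0 with any library left out. For MLN T-bet+ cDC2 against cDC1 it was 1, and 3 with DESeq2, 4 without the filter or with the block by name number, 2 with the newer dispersion estimate, 0 with only the compared subsets or with GC class, and 0 to 1 with each library left out. For MLN T-bet- cDC2 against cDC1 it was 2, and 6 with DESeq2 or without the filter, 1 with a replicate block or GC class, 5 with the newer estimate or the block by name number, 4 with only the compared subsets, and 0 to 4 with each library left out. Between organs it was 2 in cDC1 (1 to 4 with each library left out), 3 in T-bet+ cDC2 (1 with a replicate block or GC class, 1 to 3 with each library left out) and 3 in T-bet- cDC2 (0 to 3). For the difference between organs it was 0 (0 with any library left out). The spleen comparisons with cDC1 gave 2 members in T-bet+ (2 with any library left out) and 2 in T-bet- cDC2 (2 to 3). ATAC windows called between the cDC2 subsets numbered 3, and 1 with DESeq2, 5 by closest protein-coding gene or by whole peaks, 12 within 50000 bases, and 1 to 4 with each library left out. Against cDC1 they numbered 9 in T-bet+ cDC2 (22 by protein-coding gene, 46 within 50000 bases, 6 to 10 with each library left out) and 8 in T-bet- cDC2 (4 with DESeq2, 20 by protein-coding gene, 45 within 50000 bases, 3 to 10 with each library left out).

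Directions were scored only for members called or with an unadjusted p under 0.05 in the main fit, and for called windows and pathway genes that were named. None of these reversed its direction, which this selection favours, and members with smaller differences were not scored. The scored members, uncalled ones included, kept their side of the threshold in 510 cases, gained a call in 40 and lost one in 64. Windows kept it in 461 and lost it in 67, and pathway genes kept it in 675 and lost it in 64. Whether replicate numbers pair samples is not stated, and so few libraries per group cannot decide it. Deviations of same-numbered RNA libraries correlated at -0.35 to 0.34 and those of ATAC libraries at -0.03 to 0.02. For MLN T-bet- cDC2 the deposited numbers used here differ from those in the library names. In the MLN a block by name number raised the genes called against cDC1 from 952 to 2440 in T-bet+ cDC2. In T-bet- cDC2 they rose from 885 to 2477, and between the cDC2 subsets from 0 to 130. The replicate block by deposited number gave 539, 515 and 0 in the same order. With the replicate block the spleen Il27 call (adjusted p = 0.084), MLN Il1a (0.056) and, between organs in T-bet+ cDC2, Il27 (0.067) and Il1b (0.057) were lost and no other member call was. Of the pathway genes named, it lost Jak2 (0.11), Tbx21 (0.07) and Arid5a (0.063) between the spleen cDC2 subsets, Il18rap (0.072) and Irak3 (0.067) in spleen T-bet- cDC2 against cDC1, and Il18bp (0.056) between organs in cDC1.

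Counts over all genes moved more than 1.5 times. Between spleen T-bet+ and T-bet- cDC2 774 genes were called (307 to 1521 over the alternatives), against cDC1 2613 (1749 to 3345) in T-bet+ and 2279 (1464 to 3077) in T-bet- cDC2. In the MLN the counts were 0 (0 to 554), 952 (369 to 2440) and 885 (177 to 2477), between organs 1961 (535 to 3513) in cDC1, 855 (36 to 2875) in T-bet+ and 1000 (186 to 2435) in T-bet- cDC2, and for the difference between organs 1 (0 to 186). For ATAC windows they were 10460 (4844 to 11784), 38316 (23964 to 40170) and 29773 (17142 to 33301). Depth limits Il12a, Il23a and Il10, whose counts were 0 to 15, 0 to 34 and 1 to 91 per library.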

Other observations

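An inhibitor of IL-1 and an inhibitor of IL-18 differed between the organs in opposite directions, an observation chosen after its values were seen. Il1r2, the decoy receptor, fell in all MLN subsets relative to spleen, from 42.8 ± 11 to 1.03 ± 0.496 CPM in cDC1 (n = 3 each), from 1230 ± 568 (n = 3) to 63.5 ± 30.3 (n = 2) in T-bet+ and from 691 ± 352 (n = 3) to 28.7 ± 1.87 (n = 2) in T-bet- cDC2. In edgeR the log2 fold change was -5.35 in cDC1 (SE 0.58, adjusted p = 0.00031), -4.29 in T-bet+ (SE 0.63, adjusted p = 0.0038) and -4.63 in T-bet- cDC2 (SE 0.65, adjusted p = 0.0023). The calls in cDC1 and T-bet- cDC2 held in all 22 alternatives, and that in T-bet+ cDC2 was lost without MLN T-bet+ library 2 (adjusted p = 0.079). Il18bp, the secreted IL-18 binding protein, rose from 4.61 ± 1.93 to 19.1 ± 10.5 CPM in cDC1, from 4.59 ± 1.8 to 42.1 ± 41.5 in T-bet+ and from 8.85 ± 2.13 to 61.5 ± 21.1 in T-bet- cDC2. Its log2 fold change was 2.08 in cDC1 (SE 0.59, adjusted p = 0.037), 3.15 in T-bet+ (SE 0.64, adjusted p = 0.016) and 2.76 in T-bet- cDC2 (SE 0.64, adjusted p = 0.022). These calls were less firm and held in 14, 18 and 18 of 22 alternatives, with adjusted p up to 0.14, 0.48 and 0.17 where lost. In cDC1 the call was lost without MLN T-bet- library 1 or 2, MLN cDC1 2 or 3, spleen T-bet- 2 or spleen cDC1 1 or 2 and with a replicate block, in T-bet+ cDC2 without MLN T-bet+ 2 or spleen T-bet+ 1 or 3 and with library GC class, and in T-bet- cDC2 without either MLN T-bet- library or spleen T-bet- 2 or 3. Most of the summed CPM of 7 mature dendritic cell genes was Ccr7. These sums were 4200 to 15300 in MLN and 1520 to 2760 in spleen cDC1. They were 2950 to 11500 and 4200 to 4840 in T-bet+ and 12300 to 13500 and 3670 to 4940 in T-bet- cDC2. Neutrophil sums were 0.328 to 7.01 in MLN and 13.7 to 21.4 in spleen cDC1, 4.7 to 7.94 and 46.2 to 59.6 in T-bet+ and 46.6 to 66.1 and 165 to 174 in T-bet- cDC2. Immediate early sums were 3490 to 8120 and 6620 to 10900, 4970 to 10200 and 21300 to 22700, and 5330 to 12400 and 10000 to 17900 in the same order. The part of these lists in the result was not tested.

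Il18, whose product the binding protein sequesters, was not called between organs in edgeR in any subset (log2 fold change -0.84 in cDC1, -0.33 in T-bet+ and -0.39 in T-bet- cDC2, adjusted p 0.14, 0.63 and 0.58).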
